A study of Mus musculus with 16 samples.

Results

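The miR-99, miR-100 and miR-125 families of the mouse come from 6 hairpins, Mir99a, Mir99b, Mir100, Mir125a, Mir125b-1 and Mir125b-2, out of 1174 miRNA hairpins searched. The hairpins were chosen by gene name, a rule that uses no measured value, with earlier results of these data known. Reads of 18 to 26 nt that matched a hairpin without mismatch were counted, copies of the same name were summed, and each read was given to the 5p or the 3p arm of its hairpin. Mir125b-1 and Mir125b-2 carry the same 5p miRNA, so the 6 hairpins give 5 names of 1087 and 10 arms of 577 counted. All 10 arms had at least 20 reads over all libraries and were among the 540 arms tested.

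Small RNA was sequenced from mesenchymal stem cells of C57BL/6 mice, with 2 libraries in each of 8 groups. Wild-type cells (WT) were Dicer f/f and had been transfected with the fluorescent protein mCherry, and knockout cells (KO) were Dicer -/- with mCherry. The other 6 groups were Dicer -/- cells transfected with human Dicer (hsDicer) or with a point mutant of it. D1320A changes the RNase IIIA domain, D1709A the RNase IIIB domain, D1320A/D1709A both, K70A the helicase domain and Y971A/Y972A the PAZ domain. All rescue groups therefore carry a human enzyme in mouse cells that lack their own, and the labels give neither the level of the human protein nor the share of cells that took it up. Nor do they say whether the 2 libraries of a group came from separate cultures, so the tests measure only the spread between these libraries, which may be technical.

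Dicer is the enzyme that cuts the loop off a precursor hairpin and leaves a duplex of its 5p and 3p arms. It does so with a pair of RNase III domains: RNase IIIA cuts the strand that carries the 3p arm, and RNase IIIB cuts the strand that carries the 5p arm. The miR-125 family is the mammalian relative of lin-4, the first miRNA described in Caenorhabditis elegans, and it lies in conserved clusters with let-7 and with miR-99 or miR-100. miR-99 and miR-100 are known for repressing the kinase mTOR, and miR-125b for acting in stem and blood progenitor cells.

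A miRNA finds its targets mainly through its seed, bases 2 to 8 from the 5′ end, so the mature 5p sequences are shown with the seed in capitals. They are RefSeq entries on GRCm38, where all 12 mature entries of the 6 hairpins were found.
miR-99a-5p: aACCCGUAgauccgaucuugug
miR-99b-5p: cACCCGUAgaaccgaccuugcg
miR-100-5p: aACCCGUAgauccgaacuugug
miR-125a-5p: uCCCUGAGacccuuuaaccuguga
miR-125b-5p: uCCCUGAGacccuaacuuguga
The first 3 share the seed ACCCGUA, and the last 2 share CCCUGAG. Counted from the 5′ end, miR-100-5p differs from miR-99a-5p by the single substitution U16A, and miR-99b-5p differs from it by A1C, U11A, U16C and U21C. miR-125a-5p is 24 nt long and differs from the 22 nt miR-125b-5p at 7 of the first 22 bases.

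The hairpins form 3 clusters on GRCm38, each with a let-7 hairpin between a miR-99 or miR-100 and a miR-125 member, and all lie on the plus strand. Mir99b (chr17:17830188-17830257), in an intron of Spaca6, and Mir125a (chr17:17830812-17830879), which overlaps a Spaca6 exon, lie within 0.692 kb, with Mirlet7e between them. Mir99a (chr16:77598936-77599000), in an intron of Mir99ahg, and Mir125b-2 (chr16:77646273-77646343), which overlaps an exon of C130023A14Rik, span 47.4 kb with Mirlet7c-1. Mir100 (chr9:41531425-41531504) and Mir125b-1 (chr9:41581926-41582002) span 50.6 kb with Mirlet7a-2, inside the annotated genes 3110039I08Rik and Gm49317. Mir125b-1 also overlaps an exon of Gm28119, and Mir100 lies opposite an exon of Gm48742. Reads of overlapping host transcripts were not separated from those of the hairpins.

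The libraries held 10331036 to 20502254 inserts of 15 nt or more, which scaled all levels (CPM, counts per 1000000 such inserts), and counting intervals below cover counting error only. miRNA reads made up 0.293% to 47.4% of inserts. Reads were 41 nt long in every replicate 1 and 51 nt in every replicate 2, so the replicate number goes with read length. It may also mark a sequencing run, which the sample titles do not state. Between 0 and 2068 reads per library matched mouse Dicer1, with 0 and 1 in WT and 1 and 1 in KO, and the genotype could not be checked from them. Of 9 mesenchymal marker miRNAs, 8 were counted, summing to 1635 to 276007 CPM, against at most 3.37 CPM for the liver marker, 5.995 CPM for epithelium, 21.8 CPM for blood cells, 59.4 CPM for pluripotent cells, 137 CPM for neurons, 673 CPM for endothelium and 953 CPM for muscle. The part of these markers in the results was not tested. Each member arm was carried by 0 to 18 distinct sequences per library, so replicate libraries can differ widely. The KO library of replicate 1 held all 153 distinct fragments of at least 2000 reads examined in WT replicate 1, at 0.235% of their WT reads. The replicate 1 library of the double mutant held 44 of the 153, at 0.943% of those reads in sum. Whether reads passed between libraries was not tested, and the levels of KO replicate 1 hold any that did. edgeR calls of members and let-7 arms against KO are given with and without that library. In these bulk samples, fewer cells that make a miRNA and less of it per cell cannot be told apart.

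miR-125b-5p was the most abundant member in WT. Its level was 16629 and 9398 CPM in WT replicates 1 and 2, 58.5 and 65.8 CPM in KO, and 7823 and 1624 CPM with hsDicer. It was 566 and 218 CPM with D1320A, 124 and 34.6 CPM with D1709A, and 124 and 63.3 CPM with D1320A/D1709A. With K70A it was 4120 and 2726 CPM, and with Y971A/Y972A 11585 and 1307 CPM. The WT libraries stood above both KO libraries and above every RNase III mutant library. hsDicer, K70A and Y971A/Y972A overlapped one another, and the 3 groups D1709A, D1320A/D1709A and KO could not be ordered beyond their spread.

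miR-125a-5p, the other member with the miR-125 seed, measured 9754 and 6820 CPM in WT, 955 and 34.4 CPM in KO, and 3617 and 2101 CPM with hsDicer. D1320A gave 257 and 96.9 CPM, D1709A 15.5 and 63.1 CPM, and the double mutant 4.25 and 11.0 CPM. K70A gave 4512 and 4097 CPM and Y971A/Y972A 2783 and 769 CPM. Here the order of the RNase III mutants had no overlap between neighbours: D1320A lay above D1709A, and D1709A above the double mutant. The KO libraries lay far apart and spanned the D1320A values.

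miR-99b-5p, cut from the same short cluster as miR-125a, had a different order of groups. WT libraries held 8850 and 5266 CPM, KO libraries 40.3 and 21.7 CPM, and those with hsDicer 6785 and 2740 CPM. With D1320A it was 4479 and 1770 CPM, against 122 and 47.9 CPM with D1709A and 6.20 and 32.2 CPM with the double mutant. K70A gave 18663 and 7170 CPM, the former the highest value of any member in any library, and Y971A/Y972A gave 6406 and 652 CPM. The D1320A libraries overlapped those of hsDicer and lay clear of D1709A, which lay clear of KO.

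miR-99a-5p and miR-100-5p, which differ in 1 base, were the least abundant 5p members in WT. miR-99a-5p was seen mostly in replicate 2: it measured 30.8 and 1713 CPM in WT, 0.0968 and 13.1 CPM in KO, 0 and 547 CPM with hsDicer, and 0.135 and 1120 CPM with K70A. D1320A was the exception, with 375 CPM in replicate 1 and 172 CPM in replicate 2, while D1709A gave 0.156 and 8.01 CPM, the double mutant 0 and 28.9 CPM, and Y971A/Y972A 0 and 492 CPM. No neighbouring groups in its order were separated beyond their spread. miR-100-5p was 994 and 271 CPM in WT, 4.16 and 10.3 CPM in KO, 27.3 and 41.9 CPM with hsDicer, and 64.9 and 20.5 CPM with D1320A. It measured 1.33 and 0.483 CPM in the D1709A libraries, below every other library, and was 217 and 13.1 CPM in the double mutant, 352 and 71.5 CPM with K70A and 401 and 34.5 CPM with Y971A/Y972A.

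**Figure D1:**
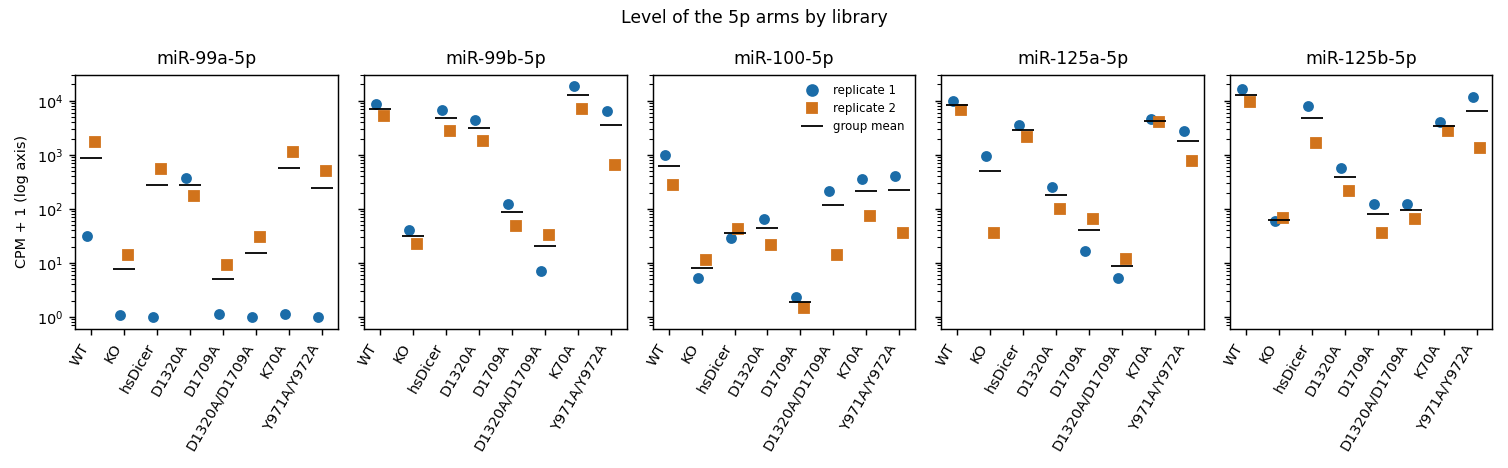
Level of each 5p arm in every library, as CPM + 1 on a log axis, for the 8 groups on the horizontal axis; circles are replicate 1, squares replicate 2 and dashes group means. miR-99b-5p keeps 1770 to 4479 CPM with D1320A, where miR-125a-5p has 96.9 to 257 CPM.

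Without Dicer, miR-99b-5p and miR-125b-5p fell. miR-99b-5p fell by 7.83 on the log2 scale in KO against WT (SE 1.55, edgeR adjusted p = 3.98e-05), and miR-125b-5p fell by 7.71 (SE 1.58, edgeR adjusted p = 9.02e-05). miR-125a-5p gave -4.07 (SE 1.49), with an edgeR adjusted p of 0.0854, and was called with the replicate number as a term (-4.35, edgeR adjusted p = 0.00996). Of the 10 member arms, 2 passed and both were lower, in a comparison in which 5.74% of all arms tested passed, all of them lower. The median change was -6.75 over the member arms and -6.95 over all arms, so the members' values lay near those of the whole set. KO replicate 1 held 0.21% to 0.27% of the WT replicate 1 reads of miR-99b-5p, miR-100-5p and miR-125b-5p, near the 0.235% of the fragments above, and 5.85% of those of miR-125a-5p. Without it the changes were -8.35 for miR-99b-5p (edgeR adjusted p = 0.0127) and -7.63 for miR-125b-5p (0.0249), and miR-125a-5p gave -7.91 (0.0651). Scaling by TMM moved the median of all arms up by 3.91, and then miR-99b-5p gave -3.23 and miR-125b-5p -3.03, neither passing. DESeq2 made 0 member calls, where 6.04% of all arms passed by that tool.

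With human Dicer, miR-99b-5p and miR-125b-5p rose. Against KO, miR-99b-5p rose by 7.26 (SE 1.51, edgeR adjusted p = 0.00017) and miR-125b-5p by 6.25 (SE 1.48, adjusted p = 0.00174) on the log2 scale. These were 2 of 10 member arms, where 5.93% of all arms passed. Without KO replicate 1, miR-99b-5p gave 7.78 (edgeR adjusted p = 0.0209) and miR-125b-5p 6.16 (0.11). Without KO replicate 2 neither passed, at an edgeR adjusted p of 0.0619 for miR-99b-5p and 0.11 for miR-125b-5p, and without hsDicer replicate 1 miR-125b-5p did not pass (0.0653). DESeq2 made 0 member calls, with 4.57% of all arms called. Against WT, hsDicer changed none of the 10 member arms by edgeR or by DESeq2, and 0 had an unadjusted p under 0.05. Of all arms, 0% passed by edgeR and 4.83% by DESeq2. The 5p members' values against WT ran from -4.19 for miR-100-5p (SE 2.83) to -0.57 for miR-99b-5p (SE 1.15), with errors of several log2 units for the rarer miRNAs.

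With the RNase IIIB mutant, 3 of the 5p members fell. In D1709A against hsDicer, miR-125a-5p fell by 6.18 on the log2 scale (SE 1.65, edgeR adjusted p = 0.0101), miR-125b-5p by 5.90 (SE 1.46, 0.00366) and miR-99b-5p by 5.81 (SE 1.41, 0.00312). These were 3 of 10 member arms, where 3.33% of all arms passed, all lower. The 5p members had a median of -5.90 beside -4.83 over all 5p arms, whereas the 3p members had a median of 1.07 beside 0 over all 3p arms. None of the 3 passed without D1709A replicate 1 (adjusted p 0.117 to 0.43) or without D1709A replicate 2 (0.237 to 0.406), and miR-125b-5p did not pass without hsDicer replicate 1 (0.118). With TMM scaling, which moved the median of all arms by 1.79, the 3 values were -3.55, -3.64 and -3.61 and did not pass. By DESeq2 they were -0.26, 0.051 and -0.025 and did not pass either, while miR-99a-3p, miR-99b-3p and miR-100-3p were called as higher, where 10.7% of all arms passed by that tool. Scaling on snoRNA and snRNA left 0 member calls.

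The RNase IIIA mutant gave no member call in the fit without a term for the replicate number. In D1320A against hsDicer, 0 of 10 member arms passed by edgeR and 0 by DESeq2, and 3 had an unadjusted p under 0.05. Of all arms, 2.04% passed by edgeR and 15.0% by DESeq2. The values were -4.01 for miR-125a-5p (SE 1.49, edgeR adjusted p = 0.203), -3.59 for miR-125b-5p (SE 1.31, 0.183) and -0.61 for miR-99b-5p (SE 1.15, 0.996). With the replicate number, which goes with read length, as a term in the edgeR fit, miR-125a-5p (-4.08) and miR-125b-5p (-3.42) were called, each at an adjusted p of 0.0297. Both D1320A libraries lay below both hsDicer libraries for miR-125a-5p and miR-125b-5p, and overlapped them for miR-99b-5p, miR-99a-5p and miR-100-5p. How many of all arms separate in this way was not counted. The 3p members gave a median of -4.73 beside -5.14 over all 3p arms.

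The mutants were also compared with each other and with the knockout. D1320A held more miR-99b-5p than D1709A, by 5.20 (SE 1.37, edgeR adjusted p = 0.0139), the single member call where 2.04% of all arms passed. It was not called without D1320A replicate 1 (0.218) or without either D1709A library (0.24 and 0.422). There DESeq2 called 3 other member arms, miR-100-3p, miR-99b-3p and miR-125a-3p, all lower in D1320A, where 24.9% of all arms passed by that tool. D1320A also held more miR-99b-5p than KO, by 6.66 (SE 1.47, edgeR adjusted p = 0.00165), the single member call where 0.926% of all arms passed, and it was not called without KO replicate 1 (0.258) or KO replicate 2 (0.255). DESeq2 called miR-125a-5p instead, lower, where 10.1% of all arms passed by that tool. D1709A against KO gave 0 of 10 member calls by edgeR, with 3 at an unadjusted p under 0.05, where 0.556% of all arms passed by edgeR. DESeq2 made 3 member calls there, miR-100-3p and miR-99b-3p higher and miR-125a-5p lower, where it called 18.3% of the 372 arms to which it gave an adjusted p.

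With both domains changed, 3 of the 5p members fell against the same hsDicer libraries. miR-125a-5p fell by 8.55 (SE 1.84, edgeR adjusted p = 0.000194), miR-99b-5p fell by 7.95 (SE 1.56, 4.55e-05) and miR-125b-5p fell by 5.66 (SE 1.44, 0.00323). These were 3 of 10 member arms, where 7.96% of all arms passed. miR-125b-5p did not pass without either double mutant library (0.0574 and 0.0974) or without hsDicer replicate 1 (0.0796). TMM scaling, which moved the median of all arms by 3.40, ended all 3 calls, at -3.88, -3.42 and -0.19. DESeq2 called none of the 3 and turned the sign of miR-125b-5p (3.43) and miR-99b-5p (0.014); its 1 member call was miR-100-5p, higher, where 9.41% of all arms passed by that tool. Against KO, the double mutant gave 0 member calls by edgeR and 1 at an unadjusted p under 0.05, where 0% of all arms passed by edgeR. DESeq2 called miR-100-5p, higher, where 8.33% of all arms passed by that tool. Without KO replicate 2, edgeR gave -6.97 for miR-125a-5p in the double mutant against KO. That value rests on KO replicate 1 alone, where miR-125a-5p was at 955 CPM. Without KO replicate 1 it was -2.18.

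The helicase and PAZ mutants gave no member call against hsDicer. For K70A and for Y971A/Y972A alike, 0 of 10 member arms passed by edgeR and by DESeq2, and 0 had an unadjusted p under 0.05. Of all arms, 0% passed by edgeR in either comparison, and 2.59% for K70A and 5.39% for Y971A/Y972A by DESeq2. K70A values ran from -0.46 for miR-125b-5p (SE 1.18) to 2.61 for miR-100-5p (SE 2.63). Both K70A libraries lay above both hsDicer libraries for miR-99b-5p, miR-100-5p and miR-125a-5p. The share of all arms that separate in this way was not counted. Y971A/Y972A values ran from -0.69 for miR-125a-5p (SE 1.33) to 2.66 for miR-100-5p (SE 2.64), and its libraries overlapped hsDicer for every 5p member.

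As a share of all miRNA reads the families were less variable than in CPM. They took 7.65% and 6.38% in WT, 6.86% and 5.10% in KO, 5.15% and 4.98% with hsDicer, and 4.46% and 4.67% in the double mutant. The extremes were the single mutants, with 12.5% and 10.6% in D1320A and 1.68% and 1.07% in D1709A. K70A gave 9.03% and 7.55%, and Y971A/Y972A 8.21% and 5.23%.

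The arm from which reads came was different in D1709A. Over all member reads the 5p arm held 21.1% and 38.6% in D1709A, against 93.1% and 98.3% with hsDicer and 99.7% and 99.4% with D1320A. It held 89.2% to 100% in the other groups. The D1709A libraries lay below all others, and the exact permutation test against hsDicer gave p = 0.333, the smallest that 2 against 2 libraries allow.

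In replicate 1 of D1709A the share was lower than in the other groups' libraries with 20 or more reads for all 5 names, to different extents. miR-99b read 14.0% 5p in D1709A replicate 1 (exact 95% interval 13.4% to 14.7%) and 24.6% in replicate 2 (22.7% to 26.5%), against 94.5% and 98.8% with hsDicer. miR-125a read 9.95% (8.67% to 11.3%) and 50.0% (47.3% to 52.7%), against 88.7% and 97.5%. miR-125b read 65.6% and 60.3% against 94.1% and 97.9%. Of its 5p reads in D1709A, 1313 of 1587 and 175 of 358 ran 3 or 4 nt into the loop of Mir125b-1, and without those the share was 24.8% (22.3% to 27.5%) and 43.7% (38.9% to 48.6%), an alternative chosen after seeing the data. miR-99a read 0.803% of 249 reads and 38.8% of 214 reads. miR-100 read 10.6% of 160 reads in replicate 1, and all 5 of its reads in replicate 2 were 5p, too few for a share. The 3p reads of miR-100 were 11.2 CPM in D1709A replicate 1 and 0 in all 15 other libraries, each below a floor of 3 reads (0.146 to 0.29 CPM). All 143 of them were 1 distinct sequence, with 0% at the RefSeq start or end of the 3p arm. The share of miR-100 and every call of its 3p arm rest on that sequence.

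**Figure D2:**
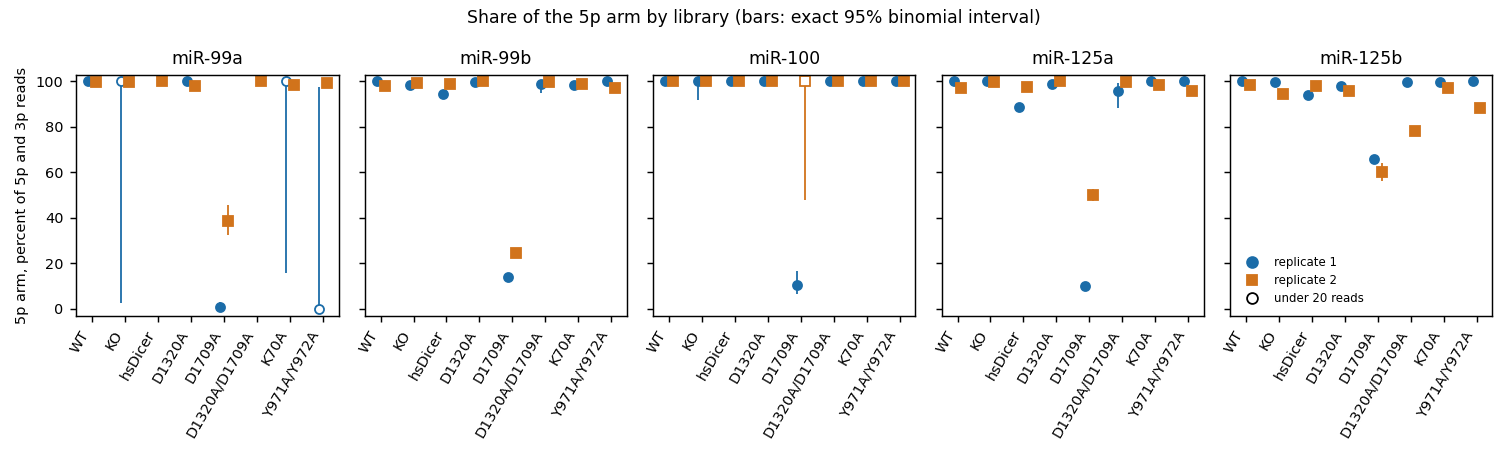
Percent of the 5p and 3p reads of each miRNA that lay on its 5p arm, by library, with exact 95% binomial intervals; circles are replicate 1, squares replicate 2, and open symbols have under 20 reads. In all 5 panels the lowest D1709A library is at or below 60.3%, and the D1320A libraries are at 95.9% or above.

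In levels, the 3p arms of the abundant members overlapped between D1709A and hsDicer. miR-99b-3p measured 748 and 147 CPM in D1709A, 3.31 and 0.164 CPM in D1320A, and 391 and 34.0 CPM with hsDicer. miR-125a-3p measured 140 and 63.1 CPM in D1709A, 2.98 and 0 CPM in D1320A, and 460 and 54.7 CPM with hsDicer. For both, D1320A lay below the other libraries named. miR-125b-3p, the sum of the different 3p arms of Mir125b-1 and Mir125b-2, was 64.9 and 22.8 CPM in D1709A, 10.6 and 9.28 CPM in D1320A, and 493 and 35.6 CPM with hsDicer. In D1709A, 830 and 177 of its reads were from Mir125b-1 and 1 and 59 from Mir125b-2. Reads were given to the 3p arm by position alone. In D1709A, 98.4% and 99.9% of miR-99b-3p reads began at the RefSeq start. For miR-99a-3p it was 34.4% of 247 reads in replicate 1 and 100% of 131 in replicate 2. In D1320A replicate 1, 10% of 50 miR-99b-3p reads began there, and 6.67% of 45 for miR-125a-3p. For miR-125b-3p there, 0 of 47 reads of Mir125b-1 and 45 of 113 of Mir125b-2 began within 2 nt of it. In the double mutant's replicate 2 these were 2 of 175 and 2 of 164. Other groups had misplaced Mir125b-1 reads too. In replicate 2, 10 of 265 began within 2 nt of the start with hsDicer, 12 of 583 with K70A and 104 of 177 with D1709A. In replicate 1 of these groups 100% did.

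The 5p to 3p ratio was tested as the interaction of arm and group over 183 hairpin names. D1709A against hsDicer gave values below 0 for all 5 names, with a median of -7.34 beside -4.43 over all names. D1320A against D1709A gave values above 0 for all 5, with a median of 12.05 beside 9.44, and the member with the smallest p was miR-99b at 13.92 (SE 5.10, edgeR adjusted p = 0.203). D1320A against hsDicer gave a median of 0.39 beside 3.80. In each of the 3 comparisons 0% of names passed by edgeR, and 0, 0 and 2 members had an unadjusted p under 0.05 in D1320A against hsDicer, D1709A against hsDicer and D1320A against D1709A. With limma on log2 counts (pseudocount 0.5), 26.2% of names passed in D1320A against D1709A, among them miR-99b (adjusted p = 0.0168) and miR-100 (0.0187).

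Longer reads showed the pieces that each mutant left. The loops between the arms are 12 to 18 nt long, so a read can hold 1 arm with its whole loop. In D1709A, the most frequent such read of each of the 6 hairpins began at the 5p arm's start. It ended at the base before the 3p arm for Mir99a, Mir99b and Mir125a, 1 nt short of it for Mir125b-1, and 1 nt inside the 3p arm for Mir100 and Mir125b-2. In replicate 1, a Mir125b-1 read ending at the base before the 3p arm was counted in another class, described below. In D1320A, the most frequent read of each hairpin began at the base after the 5p arm and ran through the loop to within 1 nt of the 3p arm's end. It is shown for 3 hairpins in each mutant, as DNA letters with the arm as given by RefSeq in capitals and all other bases in lower case. The last g of the Mir100 read lies 1 nt past the 3p arm.
Mir99a, 5p arm and loop, D1709A: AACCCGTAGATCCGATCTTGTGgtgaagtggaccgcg
Mir99b, 5p arm and loop, D1709A: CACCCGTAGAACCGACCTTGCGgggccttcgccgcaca
Mir125a, 5p arm and loop, D1709A: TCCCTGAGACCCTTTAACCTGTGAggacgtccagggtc
Mir100, loop and 3p arm, D1320A: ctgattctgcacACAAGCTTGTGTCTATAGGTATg
Mir125a, loop and 3p arm, D1320A: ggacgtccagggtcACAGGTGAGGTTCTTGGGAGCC
Mir125b-1, loop and 3p arm, D1320A: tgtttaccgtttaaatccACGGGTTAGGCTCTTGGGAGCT
The Mir125a pair shares its loop. These 6 sequences made up 99.7%, 79.8%, 100%, 83.7%, 77.1% and 95.2%, in the order printed, of the reads of their hairpin and kind in that mutant.

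Reads of the loop with the 3p arm summed to 398 and 124.998 CPM over the members in D1320A. They were at 0 in both hsDicer libraries, so D1320A was at least 1420-fold higher against a mean floor of 3 reads per library (0.184 CPM). D1709A gave 0.469 and 0 CPM, and WT 0 and 2.98 CPM, all of the latter from Mir100. In D1320A they came from 6 hairpins in replicate 1 and 5 in replicate 2, and made up 95.9% and 90.6% of the 3p arm and loop-with-3p reads together. Mir125a gave most of them, at 198 and 89.7 CPM, and Mir99b fewest in replicate 2, at 0.

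Reads of the 5p arm with the loop summed to 241 and 74.3 CPM in D1709A. They were 0 and 7.51 CPM with hsDicer, a 42.0-fold ratio of means, and 3.77 and 9.36 CPM in D1320A. In replicate 1, pieces of Mir125b-1 that hold the 5p arm and the whole loop fell into another class, described below, and are not in these sums. The double mutant gave 0 and 0.0526 CPM. In D1709A they were 28.7% and 20.3% of the reads that began at the 5p start. They came from 5 hairpins in replicate 1 and 4 in replicate 2, led by Mir99b at 134 and 35.1 CPM and Mir99a at 41.7 and 20.9 CPM. The exact permutation test against hsDicer gave p = 0.333 for each kind of read, the smallest p possible. These long inserts leave only 1 to 4 adapter bases in the 41 nt reads of replicate 1: asking for 5 or more took the D1709A replicate 1 count from 3084 to 82 reads, while replicate 2 stayed at 770, and D1320A replicate 1 went from 6004 to 3844.

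**Figure D3:**
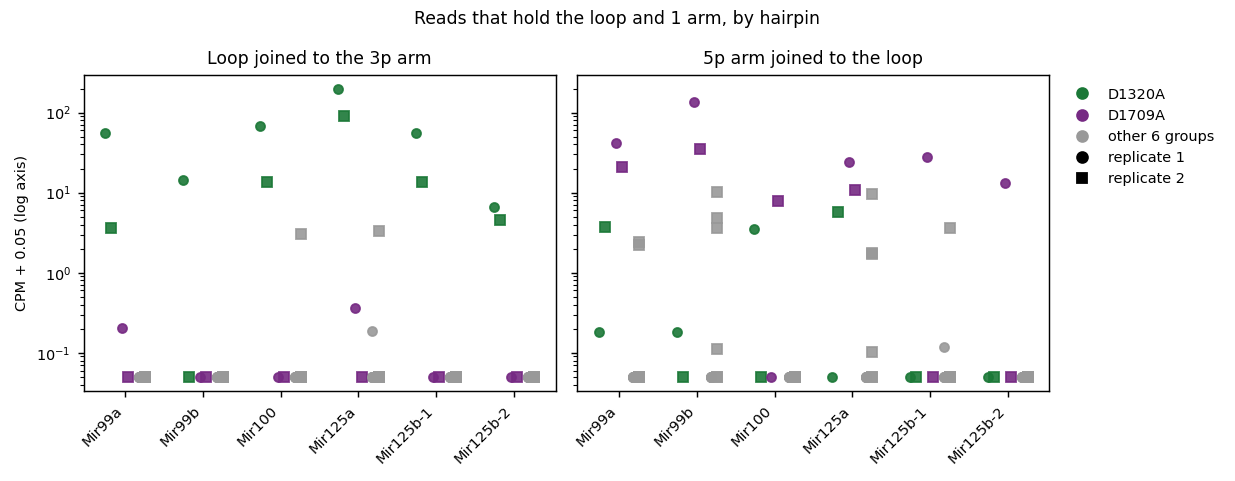
Reads that hold the loop and 1 arm, by hairpin, as CPM + 0.05 on a log axis; green is D1320A, purple D1709A, grey the other 6 groups, circles replicate 1 and squares replicate 2. Mir125a reaches 198 CPM of loop with 3p arm in D1320A, and Mir99b 134 CPM of 5p arm with loop in D1709A.

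Reads that ran from the 5p start past the first base of the 3p arm without reaching an adapter were also counted as uncut. From 5p start to 3p end the 6 precursors measure 56 to 62 nt, longer than either read and longer than the 15 to 50 nt of RNA taken from the gel, so these counts are a remnant of the precursors and not their level. Uncut reads were 0.173 and 6.10 CPM in WT and 381 and 421 CPM in KO, a 128-fold ratio of means, with p = 0.333 by the exact permutation test. They were 219 and 138 CPM with hsDicer, 400 and 76.2 CPM with D1320A, 266 and 107 CPM with D1709A, and 127 and 137 CPM with the double mutant. K70A gave 32.6 and 33.8 CPM and Y971A/Y972A 0.0566 and 22.8 CPM, both groups below hsDicer in each library.

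Set against all reads from the 5p start, uncut reads were 26.5% and 66.6% in KO, 31.6% and 29.3% in D1709A, and 23.8% and 43.2% in the double mutant. They were 6.47% and 3.21% in D1320A, 1.19% and 1.91% with hsDicer, and at most 0.689% in WT, K70A and Y971A/Y972A. In KO replicate 1, 3940 of 3941 uncut reads were from Mir125b-1. In the same replicate Mir125b-1 gave 3155 of 3156 with hsDicer, 3033 of 6040 in D1320A, 1657 of 3399 in D1709A and 2 of 2095 in the double mutant. Those reads may be 5p arms with the loop. In KO replicate 2, the hairpin with most was Mir125b-2 with 2650 reads, followed by Mir125b-1 with 1931 and Mir125a with 1311. D1709A was the group in which both the loop-bearing and the uncut reads were frequent, and there 5p reads of 18 to 26 nt made up 31.3% and 42.2%, a class that also holds the miR-125b-5p reads running 3 or 4 nt into the loop.

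**Figure D4:**
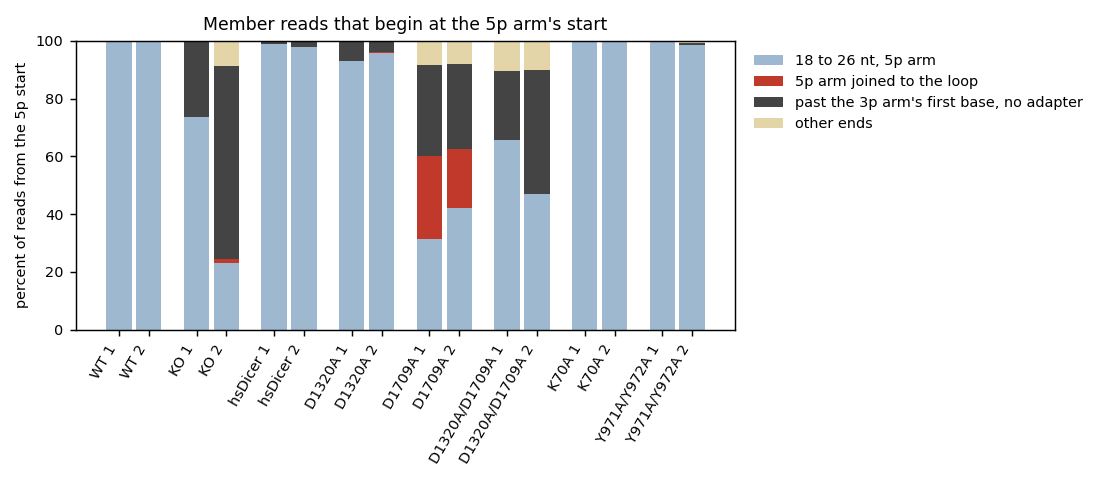
Percent of the member reads beginning at the 5p arm's start that were 5p reads of 18 to 26 nt (blue), 5p arms with the loop (red), uncut reads (dark grey) or had other ends (sand), 1 bar per library. Red is visible chiefly in D1709A, at 28.7% and 20.3%. Dark grey in replicate 1 may hold 5p arms with the loop of Mir125b-1.

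The 5′ ends of the 5p arms hardly varied. Over 72 values (arm and library, with at least 20 reads) a median of 99.4% of reads began at the RefSeq start, the lowest value being 84.7%. In WT, the most used start and end of all 5 5p arms were those of RefSeq. The 3′ ends, which Dicer makes, varied more for some members.

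miR-125b-5p reads that ran 3 or 4 nt into the loop of Mir125b-1 were 82.7% and 48.9% of its reads in D1709A. They were 0.000887% and 0.594% with hsDicer, 7.35% and 13.2% in D1320A, and 0% in both WT libraries. KO gave 0.331% and 44.1% and the double mutant 0.049% and 74.8%, so each of these groups had 1 library near 0. Y971A/Y972A gave 3.88% and 1.24%, and K70A at most 0.259%. Their most frequent sequence is shown, with the bases past the RefSeq end in capitals, beside that of miR-100-5p, another member with such reads.
Mir125b-1: tccctgagaccctaacttgtgaTGTT
Mir100: aacccgtagatccgaacttgtgCTGA
The Mir125b-1 sequence made up 92.1% of the extended miR-125b-5p reads. Nearly all such reads belonged to Mir125b-1: from Mir125b-2 there were 12 in hsDicer replicate 2, 14 in K70A replicate 2 and 0 elsewhere.

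For miR-100-5p the extended reads were 99.9% of 3571 reads in the double mutant's replicate 1 and 0.403% of 248 reads in its replicate 2. The level of 217 CPM given above for that library is therefore of the extended form. KO gave 2.33% and 31.7% and D1320A 6.63% and 26.4%. Both WT libraries were at 0%. miR-99a-5p had such reads too, at 20.2% of 549 reads in the double mutant's replicate 2. It had at most 2.41% in the other libraries with 20 or more of its reads, that value being of 83 reads in D1709A replicate 2. miR-99b-5p had 0% in every library, and for miR-125a-5p, whose RefSeq form is 24 nt, an extension of 3 nt would pass the 26 nt limit and was not counted here.

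The ratio of miR-99b-5p to miR-125a-5p, the members of the chromosome 17 cluster, was highest in D1320A. There were 17.4 and 18.3 miR-99b-5p reads per miR-125a-5p read in D1320A, against 0.907 and 0.772 in WT and 1.88 and 1.30 with hsDicer. K70A gave 4.14 and 1.75, Y971A/Y972A 2.30 and 0.847, D1709A 7.90 and 0.758, the double mutant 1.46 and 2.94, and KO 0.0422 and 0.629. Both D1320A libraries stood above all 14 others, and the exact permutation test against hsDicer gave p = 0.333, the smallest possible. miR-99b-5p stood in the same relation to miR-125b-5p of the other clusters, at 7.91 and 8.13 in D1320A, 0.532 and 0.56 in WT and 0.867 and 1.69 with hsDicer. Against let-7e-5p, the third miRNA of the chromosome 17 cluster, it was 25.6 and 26.1 in D1320A and 3.95 and 10.7 with hsDicer, but 25.6 and 34.0 with K70A. The highest values of that ratio were those of Y971A/Y972A, 3059 and 46.6. These ratios do not depend on the scaling between libraries, and they were chosen after the values were seen.

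**Figure D5:**
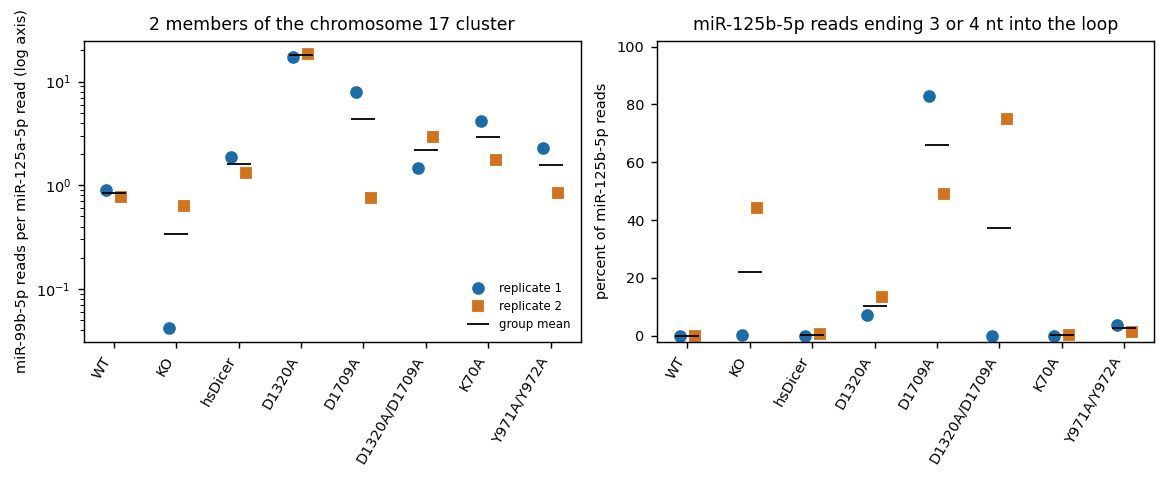
Left, miR-99b-5p reads per miR-125a-5p read on a log axis; right, percent of miR-125b-5p reads ending 3 or 4 nt into the loop of Mir125b-1; circles are replicate 1, squares replicate 2, dashes group means. D1320A has 17.4 and 18.3 on the left, and D1709A 82.7% and 48.9% on the right.

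Within each seed, the share of the members also varied. miR-125a-5p made up 37.0% and 42.1% of the miR-125a-5p and miR-125b-5p reads together in WT, and 31.6% and 56.4% with hsDicer. It made up 31.2% and 30.8% in D1320A, 52.3% and 60.1% in K70A, and 3.32% and 14.8% in the double mutant. The remainder was miR-125b-5p, and by group mean its share was highest in the double mutant, at 96.7% and 85.2%. In D1709A the share of miR-125b-5p was 88.9% and 35.4%, the former above the double mutant's replicate 2. The seed relative miR-351-5p was not in these sums. It measured 271 and 240 CPM in WT and 995 and 180 CPM in K70A. In the miR-99 and miR-100 seed, miR-99b-5p held 89.6% and 72.6% in WT, 99.6% and 82.3% with hsDicer and 91.1% and 90.2% in D1320A. In the double mutant it held 2.78% and 43.4%, where the extended miR-100-5p took 97.2% in replicate 1.

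Among relatives of the families, 11 arms of the 12 of let-7e, let-7c, let-7a, miR-10a, miR-10b and miR-351 were tested. let-7c-5p and let-7a-5p, miRNAs of the let-7 family with hairpins in the clusters of members, both fell in KO against WT. They were the 2 calls of 11, where 5.74% of all arms passed. Copies of a name were summed over the list's 8 hairpins, so these levels cannot be credited to the cluster hairpins alone. let-7c-5p fell by 7.36 (SE 1.37, edgeR adjusted p = 1.34e-05) and let-7a-5p fell by 7.61 (SE 2.14, 0.0114). They rose in hsDicer against KO by 6.76 (edgeR adjusted p = 6.86e-05) and 7.46 (0.0176), again 2 of 11, where 5.93% of all arms passed. Without KO replicate 1, let-7c-5p gave -7.39 against WT (edgeR adjusted p = 0.00919) and 6.79 in hsDicer against KO (0.0209), whereas let-7a-5p did not pass (0.231 and 0.316). Without KO replicate 2, let-7a-5p did not pass either (0.357 and 0.46). In D1709A against hsDicer let-7c-5p fell by 6.92 (edgeR adjusted p = 6.77e-05) and let-7a-5p fell by 9.83 (0.00247), 2 of 11, where 3.33% of all arms passed. In the double mutant they and miR-10b-5p made 3 of 11, where 7.96% of all arms passed. For comparisons without KO, only the main fit of the relatives is given. let-7e-5p, between Mir99b and Mir125a, gave -7.09 in KO against WT (SE 2.54, adjusted p = 0.0733) and did not pass in any comparison. let-7c-5p was higher in D1320A than in D1709A by 4.58 (edgeR adjusted p = 0.0139) and than in KO by 4.43 (0.0276), the latter not called without KO replicate 1 (0.679) or KO replicate 2 (0.603).

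Across the 16 libraries, the arms most like each 5p member were listed among 202 arms with a mean of at least 10 CPM, as a description of libraries that share depth and group. By Pearson's r of log2(CPM + 1), miR-99b-5p was nearest to miR-182-5p (0.98), miR-26b-5p (0.97) and miR-30d-5p (0.96). miR-125b-5p was nearest to miR-30c-5p, miR-30e-5p and miR-28a-5p (each 0.95), and miR-125a-5p to miR-30e-5p, miR-30c-5p (each 0.93) and miR-26a-5p (0.92). miR-100-5p was nearest to miR-151-5p (0.88), miR-30a-5p (0.86) and let-7b-5p (0.80). miR-99a-5p was nearest to miR-466c-5p, miR-30b-5p (each 0.93) and miR-29b-5p (0.92). Between members, r was 0.84 for miR-99b-5p and miR-125a-5p of one cluster, 0.79 for miR-100-5p and miR-125b-5p, and 0.20 for miR-99a-5p and miR-125b-5p.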

How the data were processed

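Small RNA of 15 to 50 nt was cut from a gel and sequenced, per the labels' protocols. The authors deposited read counts, one per distinct untrimmed read, with no alignment or scaling; how they were made is not given in the sources.

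The 3′ adapter named in the labels was removed where 12 bases matched, or 5 or more at the read end; for reads of 27 nt or more from member hairpins, 1 adapter base was enough. Exact matches of 18 to 26 nt were then sought in the hairpins of GENCODE release M21 (GRCm38). Reads matching several names were left out. A read's arm was set by the side of the hairpin midpoint its centre lay on. Mature ends and sequences are from RefSeq (GRCm38). No genome sequence was used here. A loop-bearing read had its ends within 2 nt of the arm ends given by RefSeq (3 nt at the 3p end).

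Arms with 20 or more reads in total (540 of 577) were tested by edgeR's quasi-likelihood method (version 4.0.16, R 4.3.3), with all 16 libraries in 1 fit, 2-sided, library size being inserts of 15 nt or more. Levels were compared 12 times and arm ratios 3 times. Adjusted p (Benjamini-Hochberg, over all arms of a comparison) under 0.05 was called. The common biological coefficient of variation was 2.10, and standard errors are approximate. limma 3.58.1, DESeq2 1.42.0, TMM and snoRNA scaling, other read lengths, a replicate block and leaving out libraries were alternatives. Shares called by DESeq2 are of the arms to which it gave an adjusted p (299 to 540). Scripts were tested on simulated data. Single values used exact permutation, which cannot give p below 0.333 with 2 against 2 libraries. Counting and plots used Python 3.11.15, scipy 1.17.1, pandas 2.3.3, numpy 2.4.6 and matplotlib 3.10.9.

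The members, the related list and the tests were chosen with earlier results of these data known. Text names all 10 member arms, the related list and, for each 5p member, the 3 arms most like it.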

Additional observations from a re-analysis of the deposited data

How the results depend on the processing

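Of 16 changes of single member arms followed under 11 alternatives each (176 values), 118 kept direction and side of the threshold. TMM scaling left 0 member calls in each of the 6 comparisons that had any, and DESeq2 made 0 in KO against WT and hsDicer against KO, 1 in D1320A/D1709A against hsDicer, 3 in D1709A against hsDicer, 3 in D1320A against D1709A, 1 in D1320A against KO, 3 in D1709A against KO and 1 in D1320A/D1709A against KO, none of them an arm that edgeR called there. Both scale on the miRNAs themselves: TMM moved the median of all arms by 3.91 in KO against WT, -3.28 in hsDicer against KO, 1.79 in D1709A against hsDicer and 3.40 in the double mutant. Under DESeq2 the sign turned for miR-125b-5p in D1320A/D1709A (3.43) and D1709A (0.051) against hsDicer and in hsDicer against KO (-0.77), and for miR-99b-5p in D1320A/D1709A against hsDicer (0.014). Scaling on snoRNA and snRNA left 0 calls in hsDicer against KO, D1709A against hsDicer, D1320A against D1709A and D1320A against KO. The cause was not tested.

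Counts over all arms also moved: KO against WT gave 31 calls, but 5 with TMM and 20 with DESeq2, and D1320A against D1709A gave 11, but 98 with DESeq2. The deviations of same-numbered libraries correlated with r of -0.009 to 0.434 (median 0.129, 28 pairs of groups), not over 0.1 in every pair. The labels do not pair the libraries, but the read length differs with the number. With the replicate block the member calls were 4 in KO against WT, 2 in D1320A against hsDicer, 2 in D1320A against D1709A, 2 in D1320A against KO, 1 in D1320A/D1709A against KO and 1 ratio in D1320A against D1709A. Calls over all 540 arms with the block were 52, 18, 22, 10 and 1 in the same order, and 3 of 183 ratios. limma called 2 member ratios in D1320A against D1709A with either pseudocount (0.5 or 5), where 26.2% and 27.9% of all names passed. It called 1 in D1709A against hsDicer with 5, where 7.65% passed.

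Leaving out 1 library, which assumes that the lone library of a group varies like the others, gave 2 to 2 member calls in KO against WT, 0 to 2 in hsDicer against KO, 0 to 3 in D1709A against hsDicer, 2 to 4 in D1320A/D1709A against hsDicer, 0 to 1 in D1320A against D1709A, 0 to 1 in D1320A against KO and 0 to 1 in D1320A/D1709A against KO. With reads of 15 to 30 nt and up to 2 unmatched 3′ bases, the 5p share was 99.3% in D1320A and 97.9% in K70A. In that setting miR-125a-5p made up 30.1% and miR-99b-5p 89.1% of the reads of members with their seed in D1320A. Reads at the RefSeq start averaged 97.5% in WT. The 5p arms averaged 22.2 nt in WT, 22.4 nt with hsDicer and 22.4 nt with K70A. The adapter rule, the ratio of miR-99b-5p to miR-125a-5p and the extended ends were examined under alternatives chosen after seeing the data. Depth limits miR-100-3p and most arms in KO, where a count of 0 allows up to 0.29 CPM.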
